A study of Mus musculus with 3 samples.

Results

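The chromatin of the Hox cluster genes was described in hepatocytes of wild-type mice, the cells that carry out most of the liver's metabolism. The members are the RefSeq protein-coding genes named Hoxa, Hoxb, Hoxc or Hoxd with a number, chosen by name alone. Of the 39 genes this rule names, 38 are described here, out of 21627 protein-coding genes of the gene table on chromosomes 1 to 19 and X. The peaks described lie between the first and the last described gene of each of the 4 clusters and in the 100 kb on either side, 97, 140 and 89 of the 108997, 119230 and 110455 peaks of EV replicates 1, 2 and 3.

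The series asked how forced expression of the transcription factor Sox4 alters accessible chromatin in adult hepatocytes, and measured it by ATAC-seq, in which Tn5 transposase inserts sequencing adapters where DNA is accessible. The 3 libraries used here carry the label EV and come from wild-type mice injected retro-orbitally with AAV8-TBG-Cre, an adeno-associated virus that carries Cre recombinase and no Sox4 under the hepatocyte-active TBG promoter. Livers were digested with liberase 4 days after injection, and a Percoll step enriched hepatocytes. The nuclei came from cells that had been sorted. The Sox4 libraries were not analysed here, so no comparison between treatments was made. Neither the animals' age nor whether the libraries came from separate animals is stated in the labels, and the spread between the 3 may be technical.

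Hox genes encode homeodomain transcription factors that give cells their position along the head-to-tail axis of the embryo. Along each cluster the genes lie in the order in which they are used along that axis, and genes with the same number in different clusters, called a paralog group, descend from 1 ancestral gene. Where a cluster is silent, Polycomb complexes commonly hold it in a repressed state, and where it is active, trithorax proteins keep it on, retinoic acid receptors help to switch on its anterior genes and TALE proteins such as Pbx and Meis bind DNA together with the Hox proteins.

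The libraries rested on 96066404 to 117450440 tags and their peaks had a median pileup, the number of extended tags stacked at a summit, of 125 to 157. One library stood apart before any Hox gene was examined. At Sox4, the gene carried by the other virus of the series, the tallest pileup was 128, 2544 and 134 in replicates 1, 2 and 3, which is 0.962, 20.4 and 0.854 times the median peak of the same list. The library labelled EV replicate 2 is therefore given beside the others throughout, with results also stated for replicates 1 and 3 alone. All 10 hepatocyte marker genes had a peak in every library, 8 at the start, among them Alb and Hnf4a, and 2, Ttr and Cps1, at a gene end. In every list of other genes described here, a gene without an entry in the start table was scored within 1000 bp of either gene end, which takes in the end of transcription. Scored in this way, peaks were found in all 3 libraries for 3 of 6 cholangiocyte, 3 of 7 stellate, 1 of 6 endothelial, 0 of 6 macrophage and 0 of 5 lymphocyte markers. Krt19, Dcn, Col3a1, Cdh5, Pecam1, Adgre1, Clec4f, Ptprc and Cd3e had no such peak in any library. Of all protein-coding genes, 63.9% had a peak in all 3 libraries at the start and 64.4% when scored at either gene end.

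To show what the start sites look like, the RefSeq windows of 4 members on GRCm38.p6 (the assembly of mm10), from 250 bases before the transcription start to 50 after it, are printed on the strand of the gene, 5′ to 3′, with each CG dinucleotide in capitals. Hoxd1 (chr2:74762730-74763029, plus strand, 29 CG) and Hoxa10 (chr6:52240805-52241104, minus strand, 12 CG, the outer of its 2 starts) overlapped a peak in all 3 libraries. Hoxa6 (chr6:52208623-52208922, minus strand, 26 CG) and Hoxd4 (chr2:74721728-74722027, plus strand, 4 CG) overlapped none. They are shown as a CG-rich and a CG-poor window of each kind.
Hoxd1: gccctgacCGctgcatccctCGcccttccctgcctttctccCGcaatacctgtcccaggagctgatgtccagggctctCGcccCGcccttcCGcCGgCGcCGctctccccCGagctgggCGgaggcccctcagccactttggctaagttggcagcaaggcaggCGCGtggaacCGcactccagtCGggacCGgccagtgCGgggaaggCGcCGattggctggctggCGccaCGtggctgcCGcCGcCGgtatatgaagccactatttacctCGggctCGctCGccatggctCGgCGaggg
Hoxa10: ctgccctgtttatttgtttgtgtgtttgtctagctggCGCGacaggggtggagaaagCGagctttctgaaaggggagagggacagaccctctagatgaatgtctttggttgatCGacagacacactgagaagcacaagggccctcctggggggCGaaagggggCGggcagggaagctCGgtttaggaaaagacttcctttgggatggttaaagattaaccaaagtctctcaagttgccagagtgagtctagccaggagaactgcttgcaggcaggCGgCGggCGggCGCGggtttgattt
Hoxa6: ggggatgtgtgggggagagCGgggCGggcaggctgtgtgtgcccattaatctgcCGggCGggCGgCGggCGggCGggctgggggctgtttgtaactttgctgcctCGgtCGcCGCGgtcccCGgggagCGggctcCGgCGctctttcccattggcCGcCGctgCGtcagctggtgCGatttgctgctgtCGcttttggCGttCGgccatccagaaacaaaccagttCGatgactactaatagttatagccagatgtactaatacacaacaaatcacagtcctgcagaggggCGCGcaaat
Hoxd4: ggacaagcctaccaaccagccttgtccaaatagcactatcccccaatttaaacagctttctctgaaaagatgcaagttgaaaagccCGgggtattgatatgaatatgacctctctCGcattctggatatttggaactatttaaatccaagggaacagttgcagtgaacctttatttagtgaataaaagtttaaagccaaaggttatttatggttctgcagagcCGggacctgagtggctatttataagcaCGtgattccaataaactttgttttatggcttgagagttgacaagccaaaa

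A start-site peak was found in all 3 libraries at 18 of 38 Hox genes (47.4%), against 63.9% of the 17273 protein-coding genes with a start in the table. A start-site peak here is a peak of the authors' list, called at a q cutoff of 0.05, that reaches within 1000 bp of the start. By library the count was 20, 25 and 19 Hox genes in replicates 1, 2 and 3, against 64.9%, 68.9% and 65.0% of protein-coding genes. Replicates 1 and 3 shared 18 Hox genes, against 64.2% of protein-coding genes. The library labelled EV replicate 2 alone had a peak at 4 (10.5%; Hoxa11, Hoxb1, Hoxb13 and Hoxc12), against 3.77% of protein-coding genes. No library had a peak at 13 Hox genes, against 30.5% of protein-coding genes without one. A missing peak says that a site did not pass the threshold of the authors' list, not that it was closed, and in these bulk libraries a site open in fewer cells cannot be told apart from one less open in each cell.

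The start came from the RefSeq start table for 22 members, of which 10 (45.5%) had a peak in all 3 libraries. For the other 16 the outer end of the gene on the strand of its cluster stood in for it, and 8 (50%) had one. The table counted several starts for some genes, and an outer gene end can be a distant alternative start, so these members are placed less surely. With the outer end used for every member, a rule added after seeing the data, the count was again 18, with Hoxb8 in and Hoxd11 out.

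**Figure D1:**
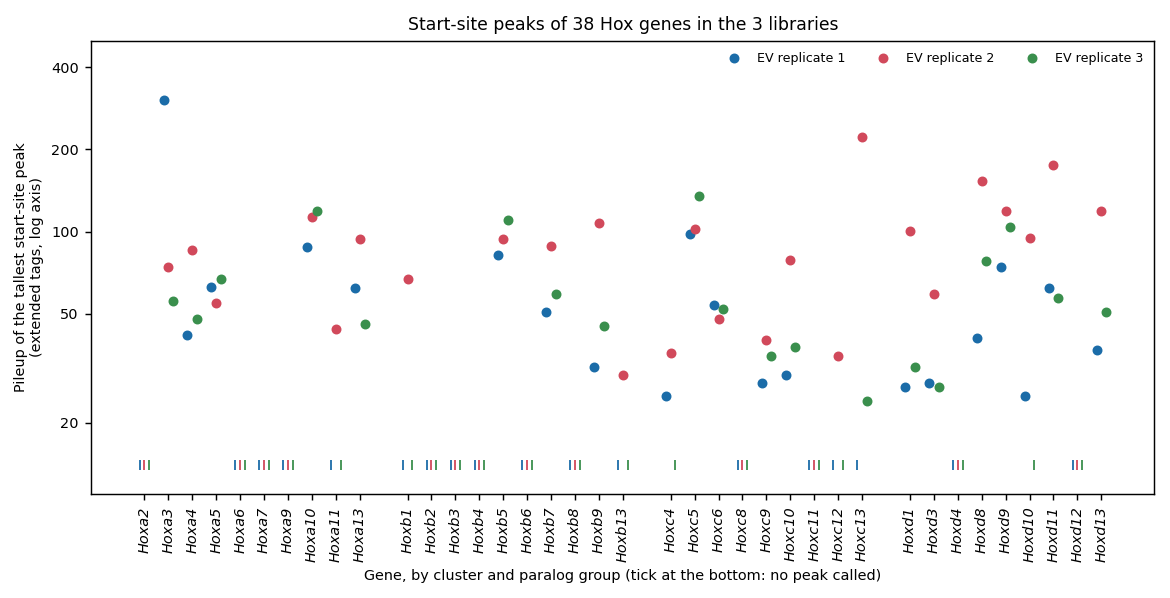
Pileup of the tallest start-site peak (extended tags, log axis) of each of the 38 Hox genes, by cluster and paralog group, in the 3 libraries; each point is 1 library and a tick at the bottom marks a library with no peak. Of the 13 genes with ticks alone, 5 are in HoxB, and the points of the other genes lie between 24 and 304.

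Along the head-to-tail order, peaks in all 3 libraries were found at 4 of 11 anterior genes (paralog groups 1 to 4), 6 of 11 central genes (groups 5 to 8) and 8 of 16 posterior genes (groups 9 to 13). The paralog groups were not uniform. In group 5 all of Hoxa5, Hoxb5 and Hoxc5 had a peak in every library, and in group 9 Hoxb9, Hoxc9 and Hoxd9 did and Hoxa9 did not. In group 2 neither Hoxa2 nor Hoxb2 had one in any library, and in groups 6 and 8 a single gene of each, Hoxc6 and Hoxd8, had one in all 3. By cluster the count was 5 of 10 in HoxA, 3 of 10 in HoxB, 4 of 9 in HoxC and 6 of 9 in HoxD, against the same 63.9%. Leaving out the library labelled EV replicate 2 gave the same 5, 3, 4 and 6, against 64.2% of protein-coding genes.

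In HoxA, the 5 genes with a peak in every library were Hoxa3, Hoxa4, Hoxa5, Hoxa10 and Hoxa13. Hoxa10, known for its part in the uterus and the lumbar skeleton, had a pileup of 88, 113 and 119 in replicates 1, 2 and 3 (mean 107 ± 16.4, SD, n = 3), from a region at chr6:52240359-52241009 that covers its outer start. Hoxa5, needed for lung development, had 63, 55 and 67 (61.7 ± 6.11), the replicates lying close together. Hoxa4, a gene of the cervical region, had 42, 86 and 48 (58.7 ± 23.9). Hoxa13, a gene of the digits and the urogenital tract, had 62, 94 and 46 (67.3 ± 24.4), so that for both of these genes the library labelled EV replicate 2 was the highest. Hoxa3, needed for the thymus and parathyroid, had 304, 74 and 56 at its outer start, but the 304 of replicate 1 belongs to a neighbouring region 819 bp from the start. The merged region at the start itself held 44, 74 and 56, all well below that, and its peak covered the start in replicate 1 alone. Hoxa2, the selector gene of the second pharyngeal arch, Hoxa6, Hoxa7 and Hoxa9, a gene of blood stem cells, had no start-site peak in any library. Hoxa11, a gene of the forearm and the uterus, had a pileup of 44 in the library labelled EV replicate 2 and no peak in replicates 1 and 3.

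In HoxB, Hoxb5, Hoxb7 and Hoxb9 had a peak in every library. Hoxb5, which acts in enteric neural crest, had 82, 94 and 110 in replicates 1, 2 and 3 (95.3 ± 14, SD, n = 3). The 3 values of Hoxb7, a gene of the trunk, were 51, 89 and 59 (66.3 ± 20). Those of Hoxb9, a thoracic gene, were 32, 108 and 45 (61.7 ± 40.6), with the library labelled EV replicate 2 more than 2 times either other. Hoxb1, the gene of rhombomere 4 and the facial nerve, had 67 and Hoxb13, a gene of the tail and the prostate, had 30, both in the library labelled EV replicate 2 alone. Hoxb2, Hoxb3, Hoxb4, studied in blood stem cell expansion, Hoxb6 and Hoxb8 had no start-site peak in any library. Hoxb8 did have a peak in all 3 libraries within 1000 bp of its outer gene end, which is not its start in the table.

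In HoxC, Hoxc5, Hoxc6, Hoxc9 and Hoxc10 had a peak in every library. Hoxc5, a cervical gene, had 98, 102 and 135 in replicates 1, 2 and 3 (112 ± 20.3, SD, n = 3), the highest mean of these 4 genes. Hoxc6, which marks forelimb-level motor neurons, had 54, 48 and 52 (51.3 ± 3.06). Hoxc9, which sets thoracic motor neuron identity, had 28, 40 and 35 (34.3 ± 6.03), which placed it at percentiles 2.31, 8.88 and 3.78 of the pileups in each list. Hoxc10, a gene of the hindlimb level, had 30, 79 and 38 (49.0 ± 26.3). Hoxc13, known for hair and nail, differed widely between libraries and had 223 in the library labelled EV replicate 2, 24 in replicate 3 and no peak in replicate 1. Hoxc4, at the anterior end of the cluster, had 25 and 36 in replicates 1 and 2 and none in replicate 3. Hoxc12 had 35 in the library labelled EV replicate 2 alone, and Hoxc8 and Hoxc11 had no start-site peak in any library.

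HoxD had the most start sites with a peak in every library, 6 of 9 (66.7%), near the 63.9% of protein-coding genes. Hoxd9, a gene of the upper limb, had 74, 119 and 104 in replicates 1, 2 and 3 (99.0 ± 22.9, SD, n = 3), from a region at chr2:74697467-74698791 that covers its start. Hoxd11, of the forearm, had 62, 175 and 57 (98.0 ± 66.7), and Hoxd8 had 41, 153 and 78 (90.7 ± 57.1). Replicates 1 and 3 lay below the library labelled EV replicate 2 at both. Hoxd13, the gene of the digits, had 37, 119 and 51 (69.0 ± 43.9), and Hoxd1, which acts in pain-sensing neurons, had 27, 101 and 32 (53.3 ± 41.4). Hoxd3, of the cervical vertebrae, had 28, 59 and 27 (38 ± 18.2). At all 6 genes the library labelled EV replicate 2 was the highest. Hoxd10, a lumbar gene, had 25 and 95 in replicates 1 and 2 and none in replicate 3, while Hoxd4 and Hoxd12 had no start-site peak in any library.

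The start-site peaks of Hox genes were low. Over the 18 genes with a peak in all 3 libraries the median pileup was 52.5, 94.0 and 54.0 in replicates 1, 2 and 3, against 573, 744 and 701 over the 11036 protein-coding genes with one. The highest of the 18 was 304, 175 and 135, below the median of the protein-coding genes in every library. The count therefore moved with the threshold. With peaks of −log10 q of 10 or more, 10 Hox genes had a peak in every library, against 62% of protein-coding genes. With the 50000 peaks of highest −log10 q in each list, 0 of 38 did, against 55.1%. Where the peak had to cover the start itself, a rule added after seeing the data, 5 did (Hoxa5, Hoxa10, Hoxd1, Hoxd9 and Hoxd11), against 59.3%.

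**Figure D2:**
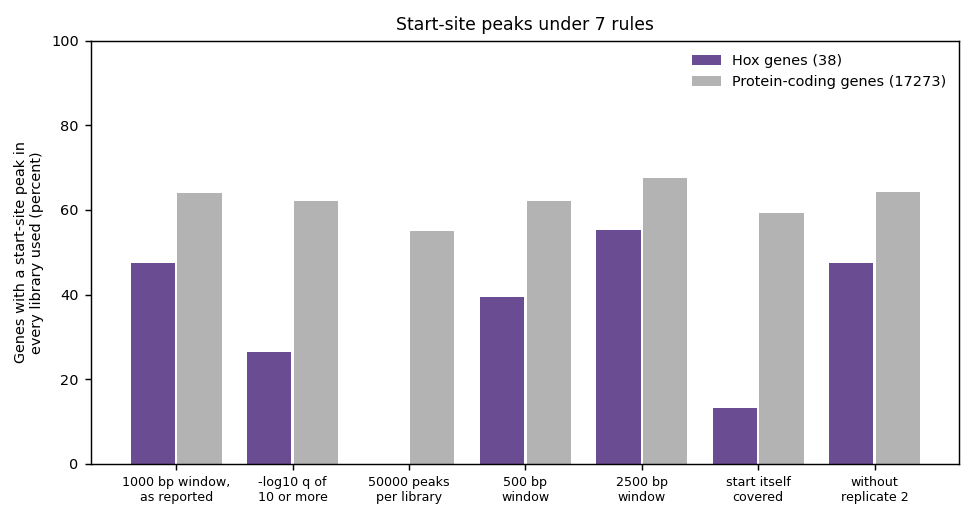
Percent of genes with a start-site peak in every library used, for the 38 Hox genes (left bar of each pair) and 17273 protein-coding genes (right bar), under 7 rules. The share of Hox genes runs from 0 of 38 with 50000 peaks per library to 21 of 38 with a window of 2500 bp, and that of protein-coding genes from 55.1% to 67.6%.

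The CG content of the start windows went with the peaks among Hox genes as it did among all genes. The 24 windows of 22 members held a median of 14.5 CG dinucleotides (4 to 45), against 13 in all 21044 windows (0 to 67). Among members with a window at or above 14.5, 9 of 12 (75%) had a start-site peak in all 3 libraries, against 92.8% of the 8744 protein-coding genes at or above it. Of the 10 members below, Hoxd8 alone (10.0%) had one in all 3, against 34.3% of 8529 protein-coding genes. The 3 CG-rich members without a peak in every library were Hoxa6, Hoxd10 and Hoxa11, and Hoxa11 was the 1 with a peak in the library labelled EV replicate 2 alone, against 3.06% of the 8744. In the printed windows Hoxa6 held 26 CG and no peak, and Hoxa10 held 12 and a peak in every library. Hoxa10 is among the 9 of 12 through its inner start, with 21 CG, but the peak it had in every library was at the outer start; the region nearest to the inner start was found in replicates 1 and 2 alone, with 21 and 50.

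Sequence matches in the same windows were few. On both strands, the Pbx-Hox composite TGATTNAT was found in windows of Hoxa2 and Hoxd11 (2 of 24, and 2.78% of all windows). The homeodomain core TAATTA was found in both windows of Hoxd11 (2 of 24, and 4.47% of all), and the AP-1 sequence TGACTCA in 1 window of Hoxd11 (4.69% of all). The Fox sequence TGTTTAC (3.03% of all), the CTCF core (0.661% of all) and the direct repeat of retinoic acid receptors (1 of 21044 windows) were in 0 of 24. TGATTNAT and TAATTA can overlap, and a match is a description of the letters, not of binding.

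Between the first and last described genes, the clusters held many peaks. Together the 4 intervals, 485 kb in all, held 54, 84 and 46 peaks in replicates 1, 2 and 3 (61.3 ± 20, SD, n = 3). In HoxA (chr6:52162417-52260880) there were 14, 24 and 11, and in HoxD (chr2:74668225-74765142) 14, 20 and 13. HoxB (chr11:96194316-96368254) held 14, 22 and 12 and HoxC (chr15:102921131-103036856) 12, 18 and 10. Per 100 kb this came to 6.90 to 24.4 peaks over clusters and libraries, against a median of 2 and an upper quartile of 7 over 100 kb bins of the genome in each library. The bins cover the whole genome, and 31.4% to 33.7% of them held no peak, while the intervals run from gene to gene. An interval also counted every overlapping peak and a bin only peaks with their middle in it. These densities are therefore not like for like. In each cluster the library labelled EV replicate 2 had the most peaks and replicate 3 the fewest. Over the genome the lists held 108997, 119230 and 110455 peaks in replicates 1, 2 and 3. They rested on 96066404, 116147036 and 117450440 tags, and the part of depth was not tested.

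**Figure D3:**
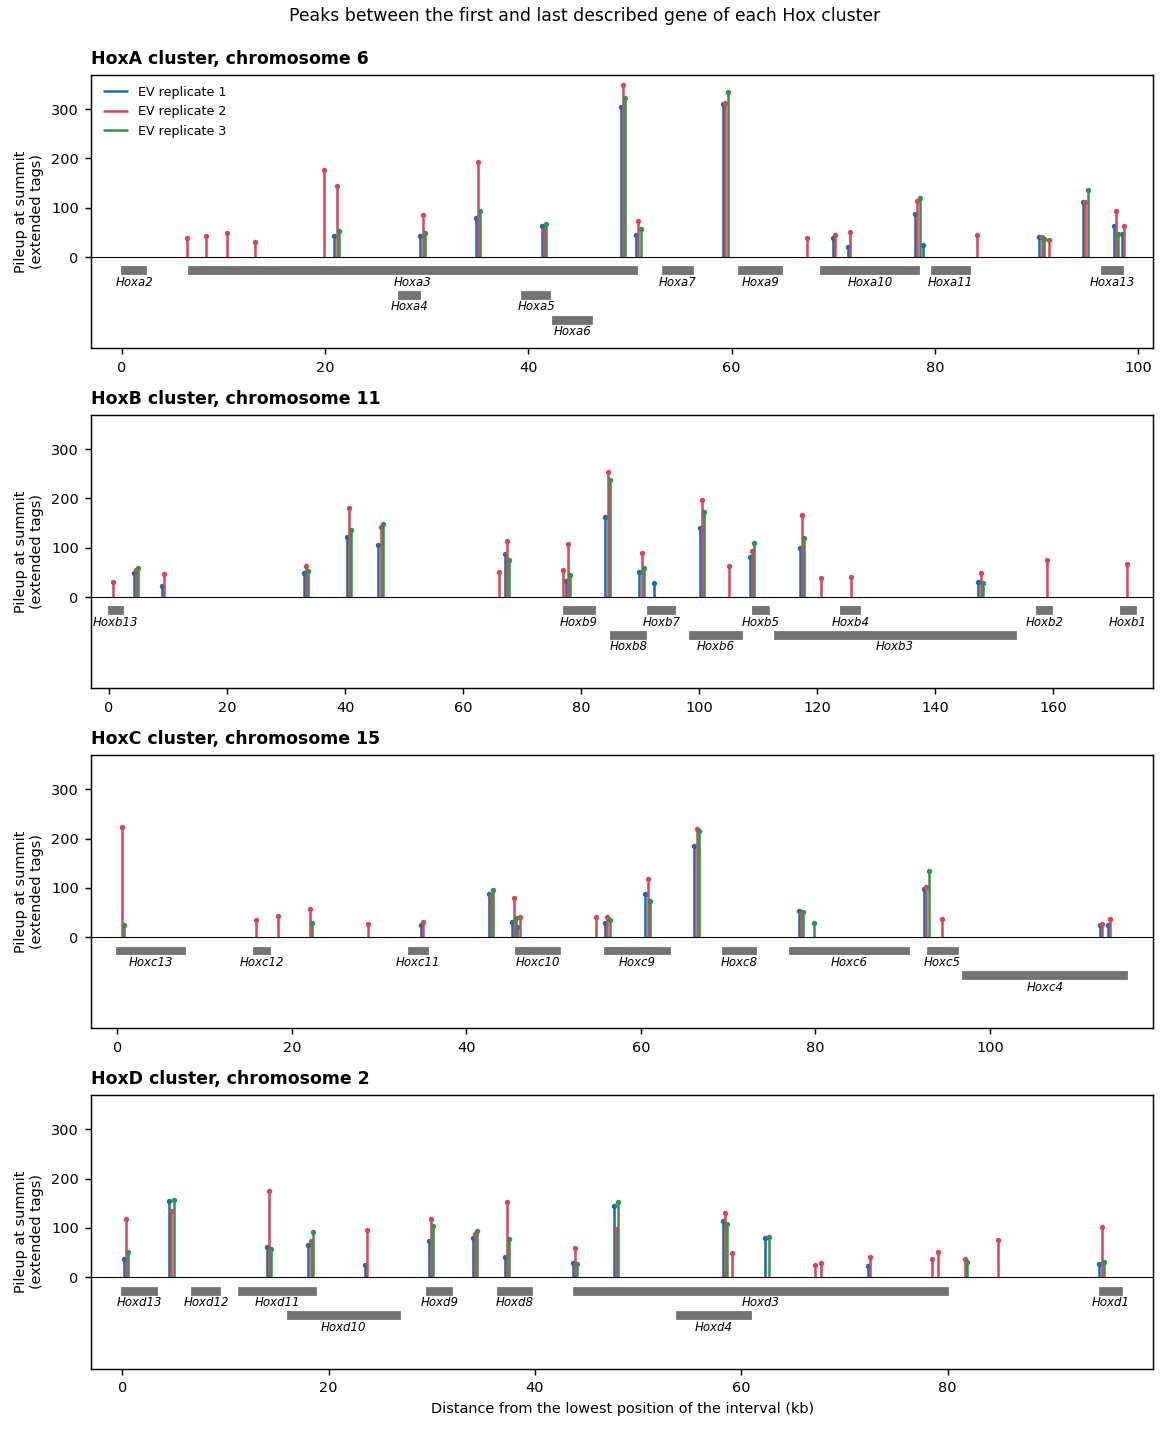
Peaks of the 4 Hox clusters by distance from the lowest position of each interval (kb), with the pileup at the summit (extended tags) of each library as a vertical line; grey bars are the genes. The tallest lines, 304 to 349, are a pair of regions in HoxA seen in all 3 libraries, and many low lines belong to replicate 2 alone.

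Merged over libraries, the intervals held 85 regions, of which 41 (48.2%) had a peak of all 3 libraries, against 61.5% of 139455 regions of the genome. The library labelled EV replicate 2 alone gave 27 (31.8%), against 16.9% of all regions. Replicate 1 alone gave 2 and replicate 3 alone 1, against 3.87% and 3.91% of all regions, and 1 region was in replicates 1 and 3 but not 2, against 8.77%. That region, chr2:74730592-74730881 inside Hoxd3, had 79 and 82 in replicates 1 and 3. Of the 27 regions of the library labelled EV replicate 2 alone, the median pileup was 40.0 and the highest 177, at chr6:52182095-52182499 inside Hoxa3. Such regions lay within 1000 bp of a Hox start in 6 of 27 cases (22.2%), against 4.93% of such regions of the genome at a protein-coding start. The intervals run from gene to gene and hold starts more densely than the genome does. These shares are therefore not like for like, and no excess at Hox starts can be read from them. In that library 2 of 6 macrophage markers also had a peak, Cd68 at its start and C1qa at a gene end, and 4 of 6 cholangiocyte and 4 of 7 stellate markers did, against 0, 3 and 3 in each of replicates 1 and 3. The summed pileup of the macrophage, cholangiocyte and stellate lists, start or gene end, was 285, 990 and 1390 in the library labelled EV replicate 2. It was 0, 606 and 832 in replicate 1 and 0, 653 and 1001 in replicate 3. The macrophage sum came from Cd68 with 255 and C1qa with 30. The cholangiocyte gene Spp1 was lowest in that library, with 74, 54 and 92 in replicates 1, 2 and 3. The unscaled sum was also highest in the library labelled EV replicate 2 for TALE, Polycomb and endothelial genes. The same held for the border, ParaHox and noncoding genes described below. It was not highest there for hepatocyte, retinoic acid receptor or trithorax and boundary genes. The part of other cell types in the Hox peaks was not tested.

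Among regions found in every library, the tallest of each cluster in replicates 1 and 3 lay 1689 to 2761 bp from the nearest Hox start. In the library labelled EV replicate 2 the tallest was the same in HoxB and HoxC, lay 819 bp from the start of Hoxa3 in HoxA and covered the start of Hoxd11 in HoxD. Regions are given below in the order of their mean percentile over the 3 libraries. In HoxA, chr6:52211219-52212248, inside Hoxa3, had 304, 349 and 323 in replicates 1, 2 and 3, and chr6:52221293-52222313, between Hoxa7 and Hoxa9 and 2720 bp from the start of Hoxa7, had 310, 312 and 334. Both differed little between libraries and exceeded every other region of the 4 intervals. The next in HoxA were chr6:52256981-52257434, 3446 bp from the start of Hoxa13, with 112, 111 and 135, and chr6:52197305-52197636, inside Hoxa3, with 79, 193 and 93. The fifth was the Hoxa10 start itself. The gene table gives no exons, so gene bodies were not divided into exons and introns.

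In HoxB the tallest region, chr11:96278441-96279144, had 162, 253 and 237 in replicates 1, 2 and 3. It lay 2761 bp from the start of Hoxb8 in the table and 257 bp from the outer end of that gene. A region inside Hoxb6, chr11:96294397-96295245, had 140, 197 and 172. Between Hoxb13 and Hoxb9, a stretch with no Hox gene, lay chr11:96234584-96235430 with 122, 180 and 137 and chr11:96240103-96240573 with 106, 143 and 149. They were 35900 and 30757 bp from the nearest Hox start, that of Hoxb9. A region inside Hoxb3, chr11:96311545-96311898, had 100, 166 and 119. In all 5 replicate 1 was the lowest.

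In HoxC the tallest region found in every library, chr15:102987053-102987956, lay 2583 bp from the start of Hoxc8 and had 184, 219 and 215 in replicates 1, 2 and 3. The second covered the start of Hoxc5, and chr15:102981444-102982366, inside Hoxc9, had 87, 118 and 73. A region 2618 bp from the start of Hoxc10, chr15:102963710-102964178, had 87, 84 and 96, and the fifth, chr15:102998980-102999996 inside Hoxc6, had 54, 48 and 52. It was lower than the region of the same rank in each other cluster in all 3 libraries.

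In HoxD, chr2:74672666-74673324, 1689 bp from the start of Hoxd12, had 154, 134 and 156 in replicates 1, 2 and 3. A region inside Hoxd3, chr2:74715734-74716407, had 145, 97 and 153. Both were lowest in the library labelled EV replicate 2, unlike the HoxD start sites. A region inside both Hoxd3 and Hoxd4, chr2:74726375-74726929, had 115, 130 and 109, and the starts of Hoxd9 and Hoxd11 made up the rest of the 5.

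The peaks of the intervals were low within each list. Their median pileup was 52.5, 61.0 and 74.5 in replicates 1, 2 and 3, against 133, 125 and 157 over all peaks. Placed within its own library's list, the median peak of the intervals stood at percentile 20, 24.8 and 26.4 (23.7 ± 3.33, SD, n = 3). Their median fold enrichment over the local background was 4.52, 3.59 and 4.73, against 6.39, 5.67 and 6.26, and by fold the median percentile was 34.0 ± 5.03. The peaks were also shorter, with a median of 378, 402 and 451 bp, against 507, 491 and 497 bp. At or above the 75th percentile stood 2 of 54, 2 of 84 and 0 of 46 peaks.

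By their medians, regions at Hox starts stood lower than the other regions of the clusters in all 3 libraries. Of the 41 regions in every library, 19 (46.3%) lay within 1000 bp of a Hox start, against 13.3% of such regions of the genome within 1000 bp of a protein-coding start. Starts lie more densely in the intervals than over the genome, so these shares are not like for like. Distances are those of merged regions, and chr6:52211219-52212248 counts as a start region through the peak of replicate 1 alone. The median percentile of the 19 regions was 19, 40.3 and 17.5 in replicates 1, 2 and 3, while that of the 22 farther away was 38.1, 49.7 and 36.3. Over the genome the order was the other way round, with 88.8, 91.8 and 88.8 at starts and 54.2, 57.6 and 54.6 away from them. The percentile was highest in the library labelled EV replicate 2 in 16 of 19 regions at Hox starts and 18 of 22 farther away, against 69.6% and 49.4% of such regions of the genome.

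**Figure D4:**
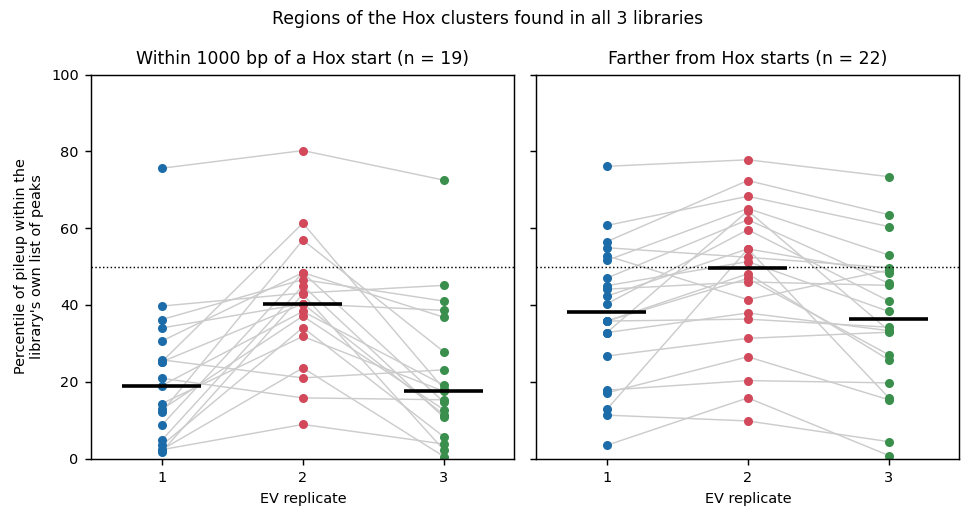
Percentile of the pileup within each library's own list, for the 19 regions within 1000 bp of a Hox start and the 22 farther away that were found in all 3 libraries; each grey line joins 1 region, the black bars are medians and the dotted line is the 50th percentile. The medians at starts were 19, 40.3 and 17.5 and farther away 38.1, 49.7 and 36.3 in replicates 1, 2 and 3.

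The microRNAs of the clusters, which repress messenger RNAs of Hox and other genes, are shown by their mature sequences with the seed (bases 2 to 8) in capitals, 5′ to 3′, because they fall into families by seed. Sequences and positions are those of RefSeq on GRCm38.p6. miR-10a-5p and miR-10b-5p share a seed, as do miR-196a-5p, encoded by Mir196a-1 and Mir196a-2, and miR-196b-5p.
miR-10b-5p: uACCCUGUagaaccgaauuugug
miR-10a-5p: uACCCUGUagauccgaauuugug
miR-196a-5p: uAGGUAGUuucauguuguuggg
miR-196b-5p: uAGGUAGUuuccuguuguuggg
miR-615-3p: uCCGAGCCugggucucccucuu

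Peaks at these loci differed within a seed family. Mir10b, in HoxD inside the spans of both Hoxd3 and Hoxd4, had a region of all 3 libraries 238 bp from its hairpin, with 115, 130 and 109 in replicates 1, 2 and 3. Its family member Mir10a, in HoxB, had none within 1000 bp, and the nearest region, 1950 bp away, was found in the library labelled EV replicate 2 alone with 39. Of the miR-196 family, Mir196a-1 had its nearest region 3271 bp away, in all 3 libraries with 87, 114 and 76. Mir196a-2 and Mir196b had theirs 2415 and 115 bp away, in the library labelled EV replicate 2 alone with 40 and 39. The region nearest to Mir615, 342 bp away, was that of the Hoxc5 start. Of the 11 noncoding genes of the clusters that were listed, 9 were scored within 1000 bp of either gene end, and Hottip and Hoxa11os at the start. So scored, Mir10b alone had a peak in all 3 libraries, against 64.4% of 21627 protein-coding genes at either gene end. At Mir615 the peaks of replicates 2 and 3 reached within 1000 bp and that of replicate 1 did not. Hottip, Hoxa11os and Hoxb5os had no such peak in any library.

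The 100 kb on either side of the clusters differed from one flank to the next. The 8 flanks, 800 kb in all, held 43, 56 and 43 peaks in replicates 1, 2 and 3 (47.3 ± 7.51, SD, n = 3). Beyond Hoxc13 there was no peak in any library, and the whole stretch without one, chr15:102807704-102920960, was 113 kb long, against a median gap between regions of 5.42 kb. Beyond Hoxc4, at the other end of the same cluster, there were 15, 14 and 16 peaks, the most of the 8 flanks in every library. On either side of HoxD, stretches of 76.0 kb between Lnpk and Evx2 (chr2:74579509-74655487) and 61.8 kb between Hoxd1 and Mtx2 (chr2:74763630-74825433) held no peak. Beyond Hoxa13, from Evx1 onwards, a stretch of 99.5 kb (chr6:52317055-52416596) held none, while inside the clusters the longest was 23.5 kb, between Hoxb13 and Hoxb9. Of the 62 merged regions of the flanks, 31 (50%) were in all 3 libraries, against 61.5% of the regions of the genome, and 15 (24.2%) in the library labelled EV replicate 2 alone, against 16.9%.

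Start sites of most neighbouring genes stood above those of the Hox genes. Of 14 border genes, 12 had a peak in all 3 libraries, all but Skap1 at the start, against 63.9% of protein-coding genes at the start. Mtx2, a mitochondrial import gene beside HoxD, had 741, 830 and 794 in replicates 1, 2 and 3, and Lnpk, an endoplasmic reticulum gene on its other side, had 499, 844 and 569. Evx1 and Evx2, homeobox genes that lie beside Hoxa13 and Hoxd13 and are related to Hox genes, were the 2 without a start-site peak in any library. Away from its start, Evx2 overlapped a region of all 3 libraries with 53, 52 and 45 in replicates 1, 2 and 3. Evx1 overlapped regions of the library labelled EV replicate 2 alone, the highest with 114. The other 10 with a peak in every library were Skap2, Hibadh, Skap1, Snx11, Smug1, Cbx5, Ttll6, Calcoco1, Hnrnpa1 and Tax1bp1, of which Cbx5 and Hnrnpa1 share 1 start region. Ttll6, with 71, 78 and 66, and Skap1, with 130, 147 and 183 at a gene end, were the 2 lowest of the 12.

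Most genes that act with or upon Hox genes had a start-site or gene-end peak in every library. So did most protein-coding genes, 63.9% at the start and 64.4% when scored at either gene end. All 9 TALE cofactor genes had a peak in every library, 5 at the start and 4 at a gene end. At a gene end, Pknox1 had 1335, 1605 and 1638 in replicates 1, 2 and 3 and at its start Meis1 had 911, 902 and 1082, while Meis3 was in the range of the Hox genes with 31, 115 and 30. All 15 Polycomb genes, Ezh2 and Suz12 among them, had one in every library, 13 at the start and 2 at a gene end, as did all 6 retinoic acid receptor genes, at the start, Rarb with 954, 1139 and 1191. Of 8 trithorax and boundary genes 6 did. The exceptions were Ash2l and Rad21, for which the gene ends stood in for a start and may miss it.

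The ParaHox genes, the sister group of the Hox genes, had such a peak in part, with Cdx1 scored at its gene ends. Of 6, 3 had a peak in all 3 libraries, against 63.9% of protein-coding genes at the start. All 6 had one in the library labelled EV replicate 2, against 68.9%. Gsx1, a brain gene, had 222, 536 and 298 in replicates 1, 2 and 3. Cdx2, a gene of the intestine, had 64, 111 and 47, and Cdx4 had 87, 99 and 82. Pdx1, the pancreas gene, and Gsx2 had 54 and 58 in the library labelled EV replicate 2 alone.

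**Figure D5:**
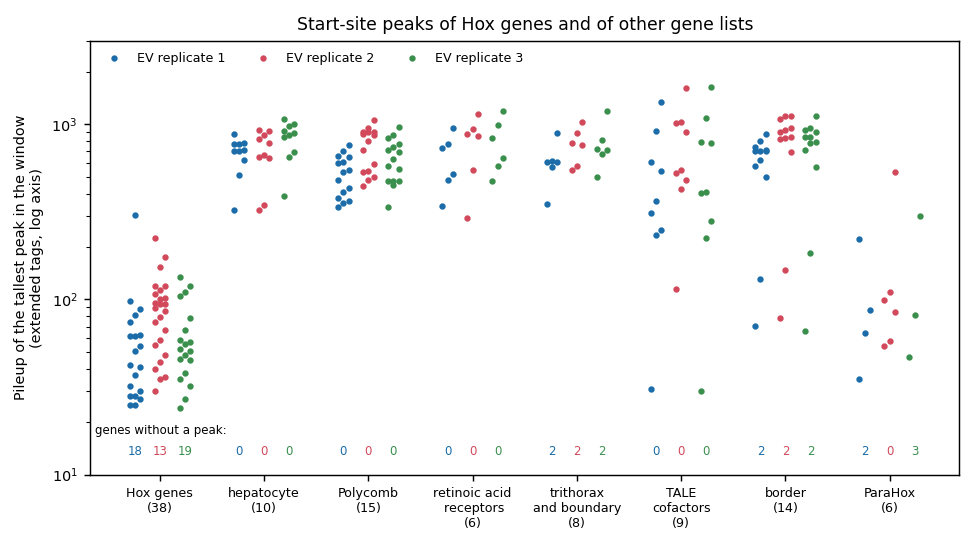
Pileup of the tallest peak at the start, or at either gene end where the start table has no entry for a list gene (extended tags, log axis) of the 38 Hox genes, leftmost, and of 7 other lists of genes, in the 3 libraries; each point is 1 gene and the numbers at the bottom count genes without a peak (18, 13 and 19 Hox genes in replicates 1, 2 and 3). The Hox points lie between 24 and 304, within each library below every Polycomb, hepatocyte and retinoic acid receptor gene shown.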

How the data were processed

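ATAC-seq peak lists of 3 EV libraries were used. Per the submitters' processing notes, the tools were Bowtie2, Picard, deepTools and MACS2 and the build was mm10. Alignment and duplicate settings are not given in the sources used here. Per the file headers, MACS 2.2.7.1 called peaks in each library alone, without a control library, with tags shifted by 100 bp, extended to 200 bp and kept when duplicated, and a q cutoff of 0.05. The signal deposited by the authors counts extended tags stacked at a summit and is unscaled. The authors' −log10 p and −log10 q compare it with the library's own background, the genome-wide or the regional level over 10000 bp, whichever is higher. The authors' fold is the ratio of the 2. These are the authors' own values, and percentiles were taken within a list. Means, SDs and orders of libraries by pileup set unscaled values of the 3 lists side by side. Differences in depth between the libraries were not removed from them. A list holds no value where no peak was called, so no interval or floor is given, and no input corrects for copy number or repeats.

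Lines sharing chromosome, start and end were counted as 1 peak, with the values of its summit of highest pileup (Python 3.11.15, pandas 2.3.3, numpy 2.4.6). Peaks sharing 1 bp or more were merged into regions. Starts came from RefSeq's table of GRCm38.p6, or from the outer gene end where a member had no entry; genes of other lists without one were scored at either gene end. The overlap and window code was tested on simulated data. No test between groups was made, because there is 1 group, and counts stand beside the same count over all features. Genes were named by a rule: all members, those with a peak in 1 or 2 libraries, and in each cluster the 5 highest start sites and regions found in every library. Members and lists were chosen with earlier results of these data known, and the CG split was added after the values were seen. Alternatives were each replicate left out, stricter peaks, other windows, flanks and overlaps. The rule names 39 genes, of which 1 is not reported here.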

Additional observations from a re-analysis of the deposited data

How the results depend on the processing

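No paired analysis was possible because there is 1 group of samples. Leaving out each replicate in turn gave 18 to 20 Hox genes with a start-site peak in every library used, 12.5 to 17.2 peaks per interval, 10.8 to 12.4 per pair of flanks, 42 to 50 regions in the intervals found in every library used, and a median percentile of 22.4 to 25.6, against 18, 15.3, 11.8, 41 and 23.7 with all 3. Peaks of −log10 q of 10 or more gave 10 genes, 10.0 peaks per interval and a median percentile of 36.9. The 50000 peaks of highest −log10 q per list gave 0 genes, 2.5 peaks per interval, 3.42 per pair of flanks, 6 regions and a median percentile of 57.7. Flanks of 50 kb held 5.67 peaks and percentiles of fold had a median of 34.0. A peak over the start itself was found at 5 genes, against 59.3% of protein-coding genes. Windows of 500 and 2500 bp gave 15 and 21 genes, against 62.2% and 67.6% of protein-coding genes. Either gene end gave 20, against 64.4%. Over these 5 results 26 alternative values stayed close and 11 moved further. Close means counts within 1.5 times of the value with all 3 libraries and percentiles within 1 SD over them. The stricter lists hold fewer and taller peaks by construction, with percentiles kept from the full list, and the causes of the other moves were not tested. A site just under the threshold of a list has no value there, and the spread between 3 libraries may be technical.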
